A study of Mus musculus with 16 samples.

Results

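Antimicrobial proteins of the colon epithelium were followed as 10 genes, chosen by name for a known role in defence of the mucosa: Mptx1, Ang4, Retnlb, Itln1, Pla2g2a, Lyz1, Mmp7, Reg3b, Reg3g and Lypd8. They are 10 of the 45513 genes in the deposited counts, and all 10 passed the filter on low counts that left 15841 genes for testing. RNA was sequenced from epithelial cells, sorted as EpCAM+, of the colon of 8 Atoh1(WT)CreERT2 R26RtdTom mice, and each mouse gave a tdTom+ and a tdTom- library. In these mice an inducible Cre follows the Atoh1 coding sequence, and tamoxifen turns on the tdTomato reporter in cells that express Atoh1, the transcription factor of secretory fate, and in their descendants. All 16 libraries came from animals given 1 mg tamoxifen per day for 3 days, so there is no group without tamoxifen or without the Cre allele. The study's methods give a C57BL/6 background, both sexes and an age of 8 to 16 weeks.

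The epithelium of the gut keeps bacteria away from its surface with mucus and with secreted proteins that bind, permeabilise or digest microbes. In the small intestine much of this arsenal is stored in Paneth cells at the crypt base, together with alpha-defensins. The colon normally has no mature Paneth cells, and its goblet cells, deep crypt secretory cells and absorptive colonocytes each make part of the set. Several of these genes are induced by bacteria and cytokines: Reg3b and Reg3g through interleukin-22 and STAT3, and Retnlb, Ang4 and Itln1 in type 2 responses to parasites.

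Library totals ranged from 16482530 to 24218367 counts for tdTom+ and from 18318172 to 45791503 for tdTom-. Mouse 4 stood apart with the largest tdTom- library and the lowest mitochondrial shares, 2.23% and 3.74%. Mice 1 and 2 held 1813 to 2138 counts of Y-linked genes in a library and the other mice 7 to 24. The tdTom+ library of mouse 3 stood apart in alpha-defensin counts. It was also the highest tdTom+ library for Lyz1, Pla2g2a, Mmp7 and Lypd8, and means of the first 3 are given without it. The tdTom- library of mouse 2 stood apart in Lyz2, and the fold change of Lyz1 is given without that mouse. Atoh1 itself had 102 to 166 CPM (counts per 1000000 counts of a library, after scaling) in tdTom+ and 3.18 to 8.89 in tdTom-. All 7 goblet cell markers were higher in tdTom+, and all 7 absorptive and all 6 enteroendocrine markers were lower. In each mouse, the median of the 7 goblet markers in tdTom- was 3.70% to 9.12% of its tdTom+ level, at 3.70% to 4.50% in mice 1 to 4 and 5.19% to 9.12% in mice 5 to 8. How far this remainder contributed to the tdTom- levels of the antimicrobial genes was not tested.

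The antimicrobial genes were divided between the populations. Mptx1, Ang4, Retnlb, Itln1, Pla2g2a, Lyz1 and Mmp7 were higher in tdTom+ cells, by 6.70-fold to 39.5-fold. Reg3b, Reg3g and Lypd8 were higher in tdTom- cells, by 3.12-fold to 7.74-fold. By edgeR at an adjusted p under 0.01, 7 of the 10 were called higher in tdTom+, where 25.5% of all genes tested were called higher, and 3 were called lower, where 25.5% of all genes were called lower. In all 10 the direction was the same in 8 of 8 mice. The groups did not overlap in CPM for any of the 10, whereas 15.2% of all genes tested lay wholly higher and 15.3% wholly lower in tdTom+. Together the 10 genes took up 1.23% to 4.41% of the counts in tdTom+ libraries and 0.703% to 1.14% in tdTom- libraries. In these bulk libraries, fewer cells that express a gene and less RNA of it in each cell cannot be told apart.

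**Figure D1:**
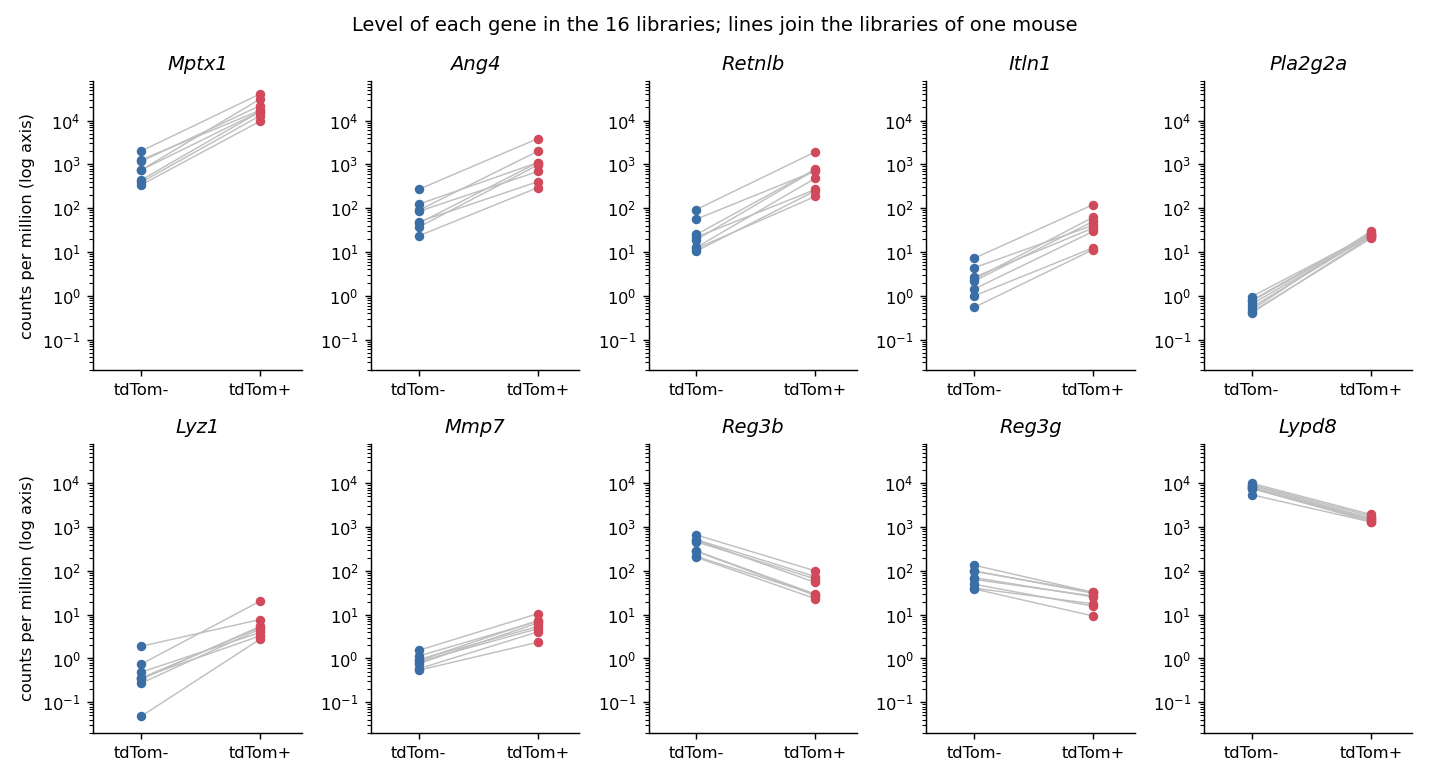
CPM (log axis) of each of the 10 genes in the 8 tdTom- libraries (blue) and the 8 tdTom+ libraries (red), with a line joining the libraries of each mouse. Lines rise to tdTom+ in the 7 genes from Mptx1 to Mmp7 and fall in Reg3b, Reg3g and Lypd8, with no overlap between populations in any panel.

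Mptx1 encodes mucosal pentraxin, a member of the pentraxin family of pattern-binding proteins. It was the gene with the highest mean CPM of all genes in tdTom+, and it made up 79.7% to 89.8% of the counts of the 10 genes there. Its CPM had a lowest value of 9677, a median of 16663 and a highest value of 40601 in tdTom+, and 339, 742 and 2009 in tdTom-. The lowest tdTom+ library thus held more Mptx1 than the highest tdTom- library. The log2 fold change was 4.54 (SE 0.40, n = 8 mice, edgeR adjusted p = 3.41e-09). This SE, like those of the other genes, comes from a fit without a mouse term, and with the mouse as a block it was 0.17. The gene lies on chromosome 1 (GRCm38, 174330518 to 174332873, plus strand, ENSMUSG00000026531).

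Reads of Mptx1 and of its neighbour in sequence, Mptx2, are partly alike. Of the 750 windows of 50 bases in the Mptx1 transcript, the read length used, 17.9% occur letter for letter in Mptx2. Mptx2 was higher in tdTom+ too, at 343 to 1473 CPM against 14.0 to 78.6 (log2 fold change 4.52, SE 0.39, edgeR adjusted p = 2.10e-09). Its counts were 3.37% to 4.73% of those of Mptx1 in tdTom+ and 3.59% to 4.23% in tdTom-. Among 14645 genes, Mptx2 was also the gene whose deviations from the population means over the 16 libraries were most like those of Mptx1 (r = 0.99, a description only). How much of the Mptx2 count is its own was not tested.

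Ang4, Retnlb and Itln1 are products of goblet cells and their relatives: Ang4 is a ribonuclease of the angiogenin family that kills bacteria, Retnlb encodes RELMβ, a secreted protein that damages bacterial membranes and is well known from worm infection, and Itln1 encodes intelectin-1, a lectin that binds microbial sugars. Ang4 is also counted here among the Paneth cell markers. It had 295, 1034 and 3874 CPM in tdTom+ as lowest, median and highest values, and 23.4, 66.7 and 270 in tdTom-. The margin between the populations was narrow for Ang4, with the lowest tdTom+ library just above the highest tdTom- library. Its log2 fold change was 3.86 (SE 0.55, n = 8, edgeR adjusted p = 4.06e-06).

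Retnlb had 186, 597 and 1939 CPM in tdTom+ and 10.5, 20.5 and 93.3 in tdTom-, with all tdTom+ libraries above all tdTom- libraries. Its log2 fold change was 4.42 (SE 0.55, n = 8, edgeR adjusted p = 6.46e-07). Itln1 was less abundant, with 11.3, 38.0 and 120.5 CPM in tdTom+ and 0.543, 2.27 and 7.16 in tdTom-. The highest tdTom- library again stayed below the lowest tdTom+ library, and the log2 fold change was 4.07 (SE 0.49, n = 8, edgeR adjusted p = 3.94e-07). Ang4 lies on chromosome 14 (51763878 to 51773590, minus strand, ENSMUSG00000060615), Retnlb on chromosome 16 (48816856 to 48818891, plus strand, ENSMUSG00000022650) and Itln1 on chromosome 1 (171518122 to 171535294, minus strand, ENSMUSG00000038209), all in GRCm38.

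These 3 genes varied more between mice than nearly all genes of like abundance, and they varied together. In tdTom+ the mouse with the most Ang4 had 13.1 times the CPM of the mouse with the least, and the ratios were 10.4 for Retnlb and 10.6 for Itln1. Mouse 7 was highest for all 3 genes in both populations. The SD of log2 CPM over the 8 tdTom+ libraries was 1.19 for Ang4, 1.11 for Retnlb and 1.14 for Itln1, where the median SD of genes within 1 log2 unit of the same level was 0.16, 0.14 and 0.14. Of the 190 genes of like level none had a larger SD than Ang4, and 1 of 494 had a larger one than Retnlb and 1 of 5270 than Itln1. Wide spread was not limited to these 3. In tdTom+ 3 of 5160 genes of like level exceeded Reg3b, 13 of 4970 Reg3g, 9 of 2978 Lyz1 and 36 of 2987 Mmp7. For Mptx1 only 4 genes were of like level, and 1 exceeded it. Pla2g2a (SD 0.17, median 0.15 at like level) and Lypd8 (SD 0.20, median 0.17) varied little. Without mouse 7 the ratio of highest to lowest fell to 6.77 for Ang4, 4.17 for Retnlb and 5.48 for Itln1.

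**Figure D2:**
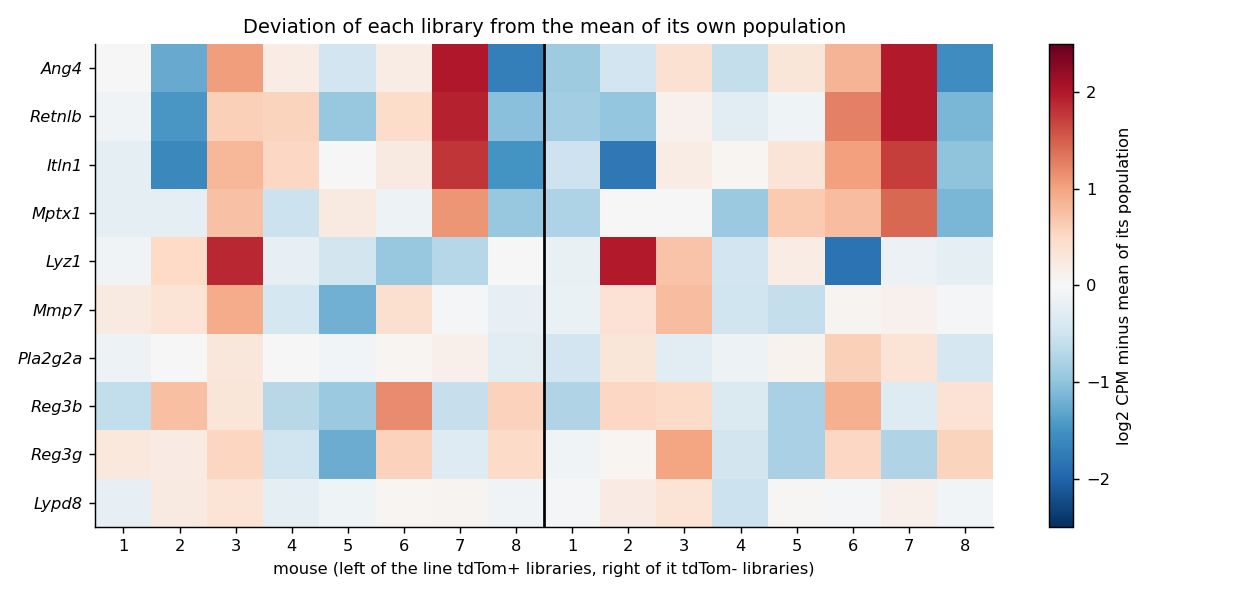
Log2 CPM of each gene in each library minus the mean of its population, with mice 1 to 8 of tdTom+ left of the line and mice 1 to 8 of tdTom- right of it, red for above and blue for below the mean. Ang4, Retnlb and Itln1 are highest in mouse 7 on both sides, Reg3b is lowest in mouse 5 on both sides, and Pla2g2a and Lypd8 stay pale.

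Of the 45 pairs of antimicrobial genes compared over the 8 tdTom+ libraries, 3 correlated at an adjusted p under 0.05, and these were the 3 pairs among Ang4, Retnlb and Itln1. For Ang4 and Retnlb Pearson's r was 0.94 (exact permutation p = 0.00052, Benjamini-Hochberg adjusted p = 0.011) and Spearman's rho 0.98 (exact permutation p = 0.00040, adjusted p = 0.0089). For Ang4 and Itln1 r was 0.96 (exact permutation p = 0.00042, adjusted p = 0.011) and rho 0.95 (exact permutation p = 0.0011, adjusted p = 0.017). For Retnlb and Itln1 r was 0.93 (exact permutation p = 0.00074, adjusted p = 0.011) and rho 0.98 (exact permutation p = 0.00040, adjusted p = 0.0089). Without mouse 7 r was 0.89, 0.94 and 0.88 in the same order. Without the 2 mice farthest from the median r was 0.92, 0.92 and 0.80. After centring within mice 1 to 3 and within mice 5 to 8, the runs of mouse numbers in the labels, r was 0.96, 0.99 and 0.92 (exact permutation p = 0.0069 for each, over 7 mice, mouse 4 left out).

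In the tdTom- libraries 3 of 45 pairs passed as well: Ang4 with Retnlb (r = 0.95, exact permutation p = 0.00017, adjusted p = 0.0073), Retnlb with Itln1 (r = 0.93, exact permutation p = 0.00057, adjusted p = 0.0086) and Mptx1 with Ang4 (r = 0.94, exact permutation p = 0.00032, adjusted p = 0.0073). Spearman's rho was 0.93, 0.95 and 0.90 for the 3 pairs, and none passed by rank (adjusted p = 0.0502, 0.0502 and 0.068 by exact permutation). Without the 2 farthest mice r was 0.89, 0.85 and 0.87, and centred within the runs of mouse numbers it was 0.96, 0.92 and 0.96. Mptx1 with Ang4 in tdTom+ had r = 0.84 (exact permutation p = 0.012, adjusted p = 0.10), short of the threshold. The number of passing pairs came to 0 in each population without mouse 7 and to 0 in tdTom+ without mouse 2. In tdTom- it came to 0 without mouse 8 and to 6 without mouse 2. How far the remainder of goblet cell RNA in tdTom- libraries contributed to the tdTom- pairs was not tested.

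**Figure D3:**
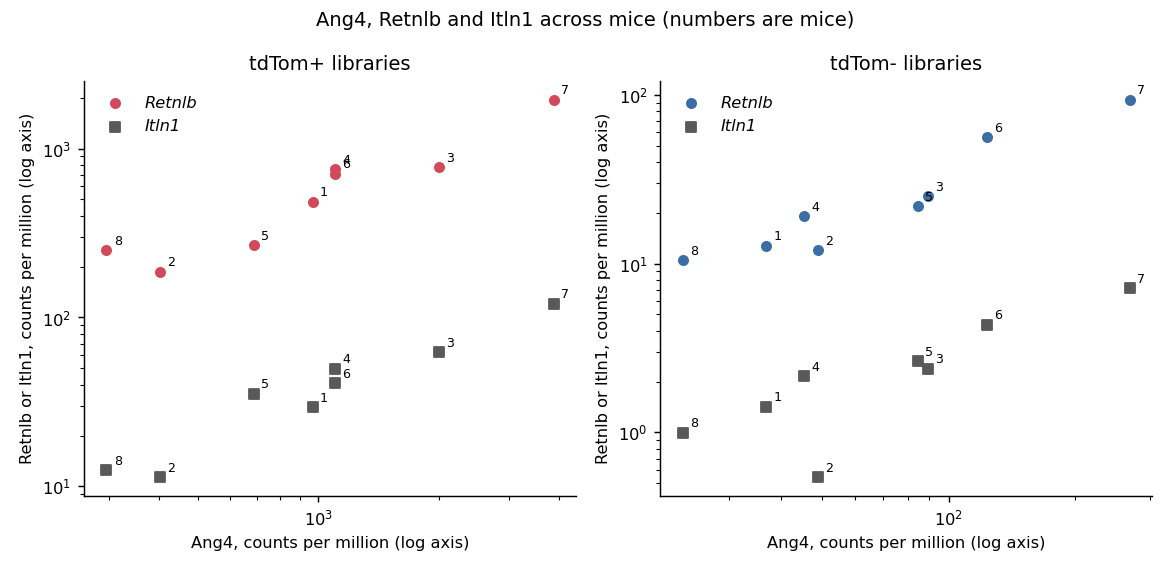
Retnlb (circles) and Itln1 (grey squares) against Ang4 in the 8 tdTom+ libraries on the left and the 8 tdTom- libraries on the right, in CPM on log axes, with the mouse number beside each point. Points climb from mice 8 and 2 to mouse 7 in tdTom+, where Ang4 runs from 295 to 3874.

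Outside the 10 genes, Clca1, a secreted protein of goblet cell mucus, was the gene most like both Ang4 (r = 0.95) and Retnlb (r = 0.94) in its deviations over the 16 libraries. Clca1 ranged from 8741 to 43567 CPM in tdTom+ and was also highest in mouse 7. Muc2, the main gel-forming mucin, ranged from only 11699 to 16981 CPM in tdTom+, with 12192 in mouse 7. The wide range of the 3 genes in tdTom+ was therefore not shared by every goblet cell marker.

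The 250 bases before the RefSeq start (GRCm38.p6) are shown for Ang4 and Itln1, since these genes moved together across mice.
Ang4 (chr14:51773591-51773840, minus strand): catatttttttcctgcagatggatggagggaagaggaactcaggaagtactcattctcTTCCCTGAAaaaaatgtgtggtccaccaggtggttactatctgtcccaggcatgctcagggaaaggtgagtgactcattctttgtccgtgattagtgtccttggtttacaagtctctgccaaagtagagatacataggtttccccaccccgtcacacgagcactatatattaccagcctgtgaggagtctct
Itln1 (chr1:171535295-171535544, minus strand): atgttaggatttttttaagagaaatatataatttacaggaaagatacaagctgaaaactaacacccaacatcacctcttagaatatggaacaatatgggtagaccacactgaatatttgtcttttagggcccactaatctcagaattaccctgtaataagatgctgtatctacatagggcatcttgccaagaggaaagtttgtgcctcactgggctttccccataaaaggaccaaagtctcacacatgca
Capitals mark a match to TTCNNNGAA, the letters that STAT factors recognise. RefSeq start regions were matched for 8 of the 10 genes, 10 regions in all, and Retnlb and Pla2g2a had no entry. Each region was searched for TTCNNNGAA, for TTCNNNNGAA, the wider spacing that STAT6 favours, and for CAGCTG, an E-box of the kind bound by Atoh1 and related factors. All 3 motifs read the same on both strands, and no match overlapped another. TTCNNNGAA was found in Ang4, starting 192 bases before the start, and in Reg3b, and CAGCTG in 1 of the regions of Lypd8, 50 bases before the start. Of 32851 regions of the same length, 7.02% hold TTCNNNGAA, 5.85% hold TTCNNNNGAA and 13.0% hold CAGCTG, so the matches are a description and no evidence of binding.

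Pla2g2a, Lyz1 and Mmp7 are proteins best known from Paneth cells: a secreted phospholipase that breaks down bacterial membranes, a lysozyme that cuts the bacterial cell wall, and matrilysin, the protease that activates alpha-defensins in mice. Pla2g2a had 20.3, 24.2 and 30.0 CPM in tdTom+ as lowest, median and highest values, and 0.406, 0.596 and 0.956 in tdTom-. It showed the greatest fold change of the 10 genes, with a log2 value of 5.30 (SE 0.14, n = 8, edgeR adjusted p = 1.73e-16), and the populations lay far apart. Unlike Ang4, it was nearly constant between mice in tdTom+, where the highest library was 1.47 times the lowest, and its SD of log2 CPM of 0.17 was close to the median of 0.15 for genes of like level. Without mouse 3, mean Pla2g2a in tdTom+ was 23.8 CPM ± 2.08 (SD, n = 7). The locus on chromosome 4 (GRCm38, 138831857 to 138835186, plus strand, ENSMUSG00000058908) is annotated as a polymorphic pseudogene. C57BL/6 mice are known to carry a disrupted Pla2g2a allele, so these values give transcript, not active enzyme.

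Mmp7 was scarce in both populations, with 2.35, 5.93 and 10.5 CPM in tdTom+ and 0.540, 0.881 and 1.54 in tdTom-. The lowest tdTom+ library, from mouse 5, still exceeded every tdTom- library. Its log2 fold change was 2.75 (SE 0.27, n = 8, edgeR adjusted p = 1.60e-08), from 46 to 163 counts a library in tdTom+ and 10 to 30 in tdTom-. Without mouse 3, mean Mmp7 in tdTom+ was 5.35 CPM ± 1.78 (SD, n = 7). Mmp7 lies on chromosome 9 (GRCm38, 7692090 to 7699585, plus strand, ENSMUSG00000018623).

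Lyz1 was also scarce, at 2.77, 4.93 and 20.4 CPM in tdTom+ and 0.0478, 0.360 and 1.90 in tdTom-. These rest on 54 to 315 counts a library in tdTom+ and on 1 to 35 in tdTom-, where the library of mouse 6 held 1 count, under the floor of 3 counts taken here as the limit of detection. All tdTom+ libraries were above all tdTom- libraries, and the log2 fold change was 3.64 (SE 0.49, n = 8, edgeR adjusted p = 1.98e-06). Leaving out mouse 3 gave 3.22 and leaving out mouse 2 gave 4.17. Lyz1 lies on chromosome 10 (GRCm38, 117287796 to 117292868, minus strand, ENSMUSG00000069515).

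A pair of libraries stood apart in genes that share Lyz1's setting. The tdTom+ library of mouse 3, with the most Lyz1, was the only 1 with appreciable alpha-defensin: 348 counts over the 10 alpha-defensin genes listed, led by Defa24 with 84, Defa20 with 70 and Defa30 with 59. Each of the other 15 libraries held 0 or 1 alpha-defensin count in all, and none of the 10 passed the filter for testing. Without mouse 3, mean Lyz1 was 4.72 CPM ± 1.65 (SD, n = 7) in tdTom+ against 6.68 ± 5.75 (SD, n = 8) with it. The part of Paneth cell RNA in that library's Lyz1 was not tested.

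The tdTom- library of mouse 2 held the most Lyz1 of its population, 35 counts, and also the most Lyz2, 361 counts against 14 to 70 in the other tdTom- libraries. Lyz2 is the lysozyme of macrophages and neutrophils, and Csf1r, a macrophage receptor, was highest in the same library with 37 counts against 4 to 14. Of the 1214 windows of 50 bases in Lyz1, 16.1% occur letter for letter in Lyz2, so some counts of these genes cannot be told apart. Lyz2 had 0.239 to 2.93 CPM in tdTom+ and 0.731 to 19.6 in tdTom- and did not pass the threshold (log2 difference -2.11, SE 0.68, edgeR adjusted p = 0.011, or 1.62e-06 when the mouse was a block, where it passed). As a whole list, 2 of the 5 tested myeloid markers out of 12 were lower in tdTom+ (Ly6g and Cd68). Of all genes tested, 25.5% were called lower. S100a8, S100a9, Csf3r and Mpo stayed at or below 6 counts in every library. The summed CPM of the 12 was 8.79 to 15.8 in tdTom+ and 48.7 to 103 in tdTom-. The most counted gene of the list alone held 10932 counts over all libraries, so the sum is no measure of the whole list.

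**Figure D4:**
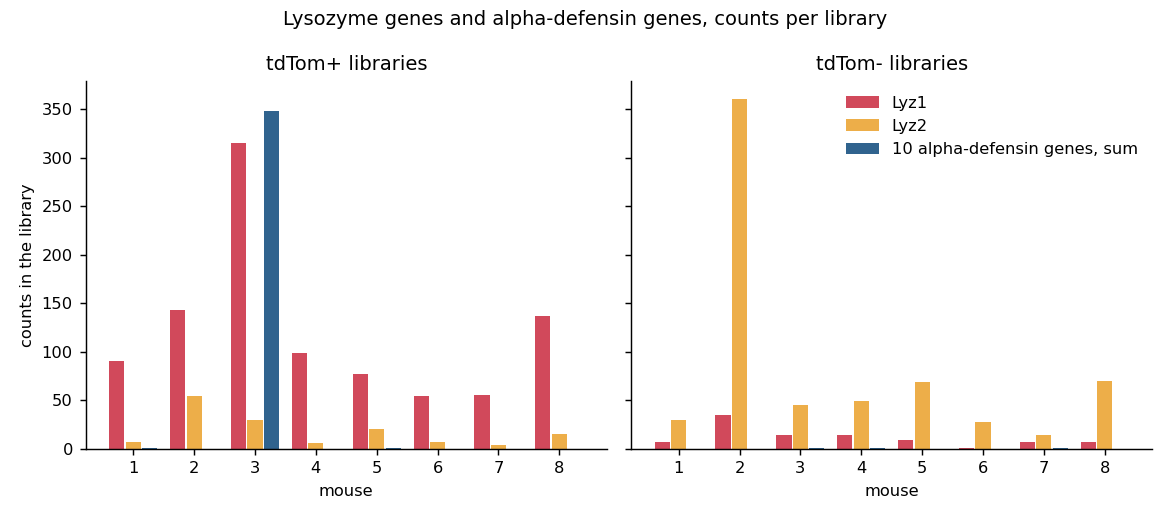
Counts of Lyz1 (red), Lyz2 (yellow) and the sum of 10 alpha-defensin genes (blue) in each library, not scaled by depth, for tdTom+ on the left and tdTom- on the right. The tdTom+ library of mouse 3 holds 348 alpha-defensin counts and 315 of Lyz1, and the tdTom- library of mouse 2 holds 361 of Lyz2.

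Reg3b and Reg3g encode secreted antibacterial C-type lectins, and both were lower in tdTom+. Reg3b had 23.2, 41.9 and 100.01 CPM in tdTom+ as lowest, median and highest values, and 203, 373 and 661 in tdTom-. Its log2 difference was -2.95 (SE 0.33, n = 8, edgeR adjusted p = 1.03e-07), with every tdTom- library above every tdTom+ library. Reg3g had 9.34, 26.1 and 33.0 CPM in tdTom+ and 38.9, 67.1 and 135 in tdTom-. Its populations came close without overlap, and its log2 difference was -1.64 (SE 0.27, n = 8, edgeR adjusted p = 2.28e-05).

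The paralogs did not fall by the same amount. In counts, Reg3g was 33.0% to 92.8% of Reg3b in tdTom+ and 13.6% to 29.9% in tdTom-. The log2 ratio of Reg3g to Reg3b was higher in tdTom+ by 1.40 ± 0.36 (SD, n = 8), in 8 of 8 mice (exact two-sided sign-flip permutation p = 0.0078, the smallest 8 mice allow). This comparison was chosen after the values were seen. No window of 50 bases is shared between Reg3b and Reg3g, whose closest windows differ at 3 positions. Reg3a, the next relative, had 0 to 5 counts a library in tdTom+ and 8 to 45 in tdTom- and did not pass the filter.

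Both genes lie on chromosome 6 of GRCm38, Reg3b at 78370885 to 78373466 on the plus strand (ENSMUSG00000071356) and Reg3g at 78466269 to 78468872 on the minus strand (ENSMUSG00000030017). Their start regions are shown because the genes are neighbours in the genome and fell unequally.
Reg3b (chr6:78370635-78370884, plus strand): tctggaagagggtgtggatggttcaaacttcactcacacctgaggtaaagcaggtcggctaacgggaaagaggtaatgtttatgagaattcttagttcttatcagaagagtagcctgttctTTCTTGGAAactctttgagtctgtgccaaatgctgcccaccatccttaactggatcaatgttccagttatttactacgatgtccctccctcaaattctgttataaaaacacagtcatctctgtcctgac
Reg3g (chr6:78468875-78469124, minus strand): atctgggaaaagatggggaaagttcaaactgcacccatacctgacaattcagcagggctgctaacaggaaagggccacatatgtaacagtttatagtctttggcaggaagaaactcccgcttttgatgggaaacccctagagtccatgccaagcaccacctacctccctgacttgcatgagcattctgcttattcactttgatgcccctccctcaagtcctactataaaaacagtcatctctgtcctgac
Capitals again mark TTCNNNGAA, found 129 bases before the start in Reg3b and not in this window of Reg3g. The last 20 bases before the start are identical in the 2 genes.

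Reg3b and Reg3g differed between mice in a way that each mouse's populations shared. Mouse 5 was lowest for both genes in both populations, and mouse 6 was highest for Reg3b in both. The ratio of highest to lowest library was 4.30 for Reg3b in tdTom+ and 3.25 in tdTom-, and 3.53 and 3.47 for Reg3g. Reg3b in tdTom+ followed Reg3b in tdTom- over the 8 mice with r = 0.96 (exact permutation p = 0.0013, adjusted p = 0.011) and rho = 0.95 (exact permutation p = 0.0011, adjusted p = 0.011). Without the 2 farthest mice r was 0.93, and centred within the runs of mouse numbers it was 0.97. Reg3b against Reg3g had r = 0.78 in tdTom+ (exact permutation p = 0.019, adjusted p = 0.12) and 0.79 in tdTom- (exact permutation p = 0.031, adjusted p = 0.17), and neither passed.

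Lypd8 encodes a GPI-anchored protein of the colon surface that binds flagellated bacteria and hinders their movement. It ranked 4th of all genes by mean CPM in tdTom- and made up 76.3% to 90.9% of the counts of the 10 genes there. Its lowest, median and highest values were 1313, 1519 and 1947 CPM in tdTom+ and 5470, 7891 and 10006 in tdTom-. The populations were well separated, and the log2 difference was -2.37 (SE 0.12, n = 8, edgeR adjusted p = 5.75e-13). The spread was small, with a highest library 1.48 times the lowest in tdTom+ and 1.83 times in tdTom-. Lypd8 lies on chromosome 11 (GRCm38, 58379043 to 58390728, plus strand, ENSMUSG00000013643).

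**Figure D5:**
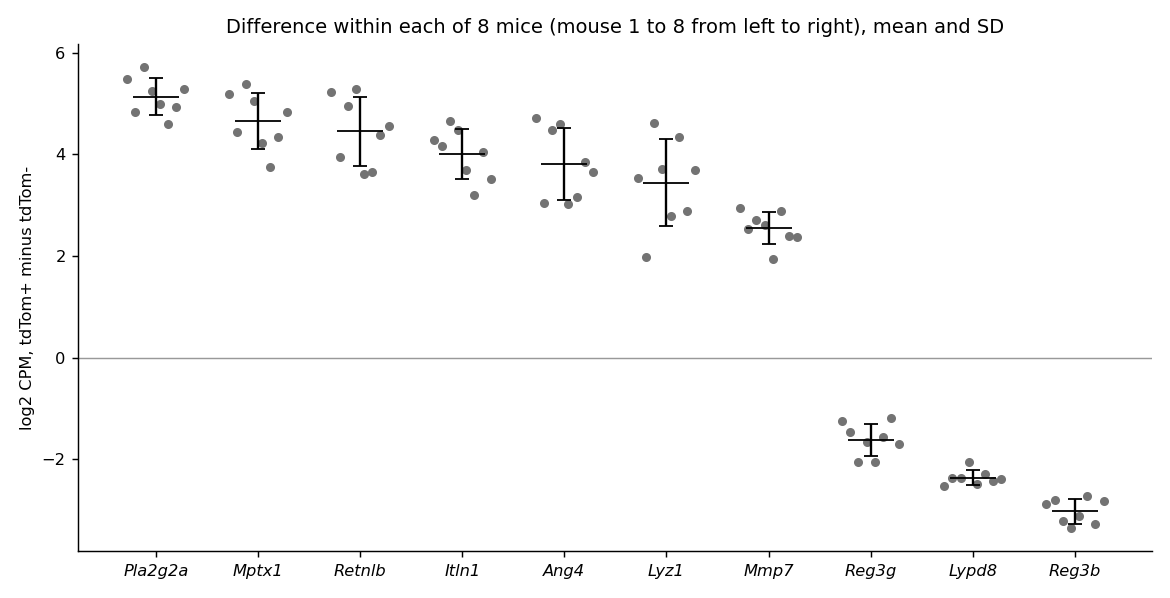
Log2 CPM in tdTom+ minus log2 CPM in tdTom- for each gene, with a grey point per mouse (mouse 1 to 8 from left to right), a bar for the mean and whiskers of 1 SD over 8 mice. Pla2g2a is highest and Reg3b lowest, and no mouse crosses 0 in any gene.

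Per kilobase of exon, the order of levels in tdTom+ ran from Mptx1 (25911 ± 12892 CPM per kilobase, SD, n = 8) through Ang4, Lypd8, Retnlb, Reg3b, Itln1, Pla2g2a, Reg3g and Mmp7 to Lyz1 (5.28 ± 4.55). Among the 9 neighbours in this order, 4 differed by an exact sign-flip permutation test at an adjusted p under 0.05: Mptx1 from Ang4, Retnlb from Reg3b, Pla2g2a from Reg3g, and Reg3g from Mmp7 (adjusted p = 0.018 for each). The neighbours Ang4 and Lypd8, Lypd8 and Retnlb, Reg3b and Itln1, Itln1 and Pla2g2a, and Mmp7 and Lyz1 were not separated beyond the spread between mice. Genes that are not neighbours in this order were not compared.

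In tdTom- the order of levels per kilobase was Lypd8 (6272 ± 1051 CPM per kilobase, SD, n = 8), Mptx1, Reg3b, Ang4, Retnlb, Reg3g, Itln1, Mmp7, Pla2g2a and Lyz1 (0.445 ± 0.454). Lypd8 differed from Mptx1, Ang4 from Retnlb, and Reg3g from Itln1 (exact sign-flip permutation, adjusted p = 0.023 for each), and Reg3b from Ang4 (adjusted p = 0.035 by the same test). Mptx1 and Reg3b did not pass (adjusted p = 0.070), and neither did Retnlb and Reg3g (adjusted p = 0.89) or any neighbours from Itln1 downwards.

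For the differences between populations, the order of the mean log2 difference within mice was Pla2g2a, Mptx1, Retnlb, Itln1, Ang4, Lyz1, Mmp7, Reg3g, Lypd8 and Reg3b. Pla2g2a exceeded Mptx1 in 8 of 8 mice, by 0.48 ± 0.23 on the log2 scale (SD, exact sign-flip permutation, adjusted p = 0.018). From Mptx1 through Retnlb, Itln1 and Ang4 to Lyz1, no gene was separated from the next. Lyz1 exceeded Mmp7 in 7 of 8 mice (adjusted p = 0.042 by the same test), and Mmp7, Reg3g, Lypd8 and Reg3b each differed from the next (adjusted p = 0.018).

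Across the 8 mice the level of a gene in tdTom+ followed its own level in tdTom- for 8 of the 10 genes at an adjusted p under 0.05, with r from 0.80 for Mptx1 to 0.96 for Reg3b. The share of all genes tested that would pass is not given here, so the count does not set these genes apart. Over all genes tested, the deviations of the 2 libraries of a mouse correlated at r = 0.22 to 0.41. Lyz1 (r = 0.63, exact permutation p = 0.12, adjusted p = 0.13) and Pla2g2a (r = 0.34, exact permutation p = 0.42, adjusted p = 0.42) did not pass. Both are thinly counted in tdTom-, Pla2g2a with 8 to 28 counts a library. Mmp7, with 10 to 30 counts there, did pass (r = 0.89, adjusted p = 0.011 by exact permutation). Pla2g2a also varied little in tdTom+ (SD of log2 CPM 0.17). Why Lyz1 and Pla2g2a did not pass was not tested. Spearman's rho for the 8 ranged from 0.69 for Ang4 (adjusted p = 0.087 by exact permutation, not passing) to 0.95 for Reg3b. Without the 2 farthest mice r fell to 0.34 for Ang4 and 0.56 for Retnlb, which therefore rest on those mice, and stayed between 0.69 and 0.94 for the others. Centred within the runs of mouse numbers, r for the 8 genes was 0.84 to 0.98, and Mptx1 (r = 0.85, exact permutation p = 0.076) did not pass there. Leaving out mouse 7 or mouse 8 brought the number of genes that passed from 8 to 5. Of the 8, Mptx1, Ang4, Retnlb and Itln1 had a median tdTom- level of 4.06%, 7.44%, 4.51% and 5.38% of tdTom+. Mmp7 stood at 15.4%, and Reg3b, Reg3g and Lypd8 were higher in tdTom-. The median of the 7 goblet markers was 4.85%. The summed CPM of the 7 absorptive markers had a median of 566 in tdTom+ and 9897 in tdTom-. How far secretory cells in tdTom- libraries, or absorptive cells in tdTom+ libraries, tied the levels of the 2 populations was not tested.

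Among the relatives of these genes, 10 of 18 listed paralogs passed the filter, 7 were higher in tdTom+ and none lower, where 25.5% of all genes were called in each direction, with a median log2 fold change of 1.53 against 0.0039 over all genes tested. Beside Mptx2, these were Reg4, a lectin of deep crypt secretory cells (log2 fold change 4.14, edgeR adjusted p = 2.14e-11), Ang5 (3.87, adjusted p = 2.62e-06), Rnase4 (2.20), Pla2g5 (1.54), Ang (1.51) and Pla2g10 (1.16). Ang5 counts were 2.16% to 2.78% of those of Ang4 in tdTom+, and 4.70% of the 660 windows of Ang4 occur in Ang5 or Ang2, so Ang5 is uncertain. Pla2g12a (0.27, adjusted p = 0.091) and Pla2g12b (-0.45, adjusted p = 0.14) did not pass. Under the block for the mouse, 8 were higher and 1 lower, the added calls being Pla2g12a and Lyz2. Reg1 had 0 to 5 counts a library in tdTom+ and 0 to 19 in tdTom- and did not pass the filter. It was lower in tdTom+ in 6 of 8 mice and higher in 1.

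Of 33 other defence genes listed, 24 were tested, 5 were higher and 16 lower, against 25.5% of all genes tested in each direction, with a median log2 difference of -1.78. Under the block for the mouse 6 were higher, the added call being Pigr, the receptor that carries IgA across the epithelium (log2 fold change 0.26, edgeR adjusted p = 0.034 without the block and 0.0013 with it). Those higher were led by Ido1, an enzyme that breaks down tryptophan (4.37, SE 0.97, edgeR adjusted p = 0.00056), Zg16, a lectin of mucus that binds Gram-positive bacteria (3.56, adjusted p = 1.24e-10), and Slpi, a protease inhibitor (3.17, adjusted p = 2.87e-08). Ido1 ranged from 1.43 to 88.4 CPM in tdTom+, with the highest value in mouse 6, and its populations overlapped. The 3 largest falls were in the serum amyloid A genes Saa1 (-3.34, adjusted p = 4.76e-11), Saa2 (-3.31, adjusted p = 6.49e-11) and Saa3 (-3.24, adjusted p = 1.17e-09), which like Reg3b are known to be induced by bacteria. Saa1 had 60.8 to 192 CPM in tdTom+ and 677 to 1514 in tdTom-. Of the 16 lower genes, Sprr2a1 and Sprr2a2 overlap on chromosome 3 and had nearly the same values (log2 difference -2.21 for each). They may therefore not be separate entries in the count of 16 and in the median.

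All 24 genes listed as receptors and regulators of this programme were tested, with 11 higher and 10 lower, where 25.5% of all genes tested were called in each direction, and a median log2 difference of -0.02. The secretory transcription factors Atoh1 (4.54, adjusted p = 1.14e-15), Gfi1 (4.37, adjusted p = 1.47e-15) and Spdef (4.34, adjusted p = 2.56e-14) were the 3 most increased by edgeR. Il13ra1 (1.64, adjusted p = 9.93e-14) and Il4ra (0.96, adjusted p = 2.40e-09), which together form the receptor for interleukin-13, were higher too. Il22ra1, the epithelial subunit of the interleukin-22 receptor, was lower (-0.62, adjusted p = 2.04e-05), as were Nfkbiz (-1.56), Vdr (-1.31) and Hnf4a (-1.11). Stat3 was slightly higher (0.33, adjusted p = 0.00043), and Il10rb, Myd88 and Socs3 did not pass. Socs3, a feedback inhibitor of STAT3, had a log2 difference of -0.67 (adjusted p = 0.019) and passed under the block for the mouse (adjusted p = 5.95e-06), in the same direction in 8 of 8 mice.

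The remaining genes most alike in deviations over the 16 libraries were Ifi27 for Lyz1 (r = 0.85), Rep15 for Pla2g2a (r = 0.81), Gm14925 for Reg3b (r = 0.86), Ugp2 for Reg3g (r = 0.83), Cystm1 for Mmp7 (r = 0.90) and Tango2 for Lypd8 (r = 0.93). Each is the highest of 14645 correlations over libraries that share mice and sorts, and is given as a description.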

How the data were processed

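Total RNA of sorted EpCAM+ colon cells was converted to stranded mRNA libraries, and the authors deposited raw counts per gene for each of the 16 libraries (featureCounts 1.5.0-p1 in the file headers, exon reads summed by gene on the reverse strand, primary alignments only, so a read with several places was counted at its primary place). The submitters' processing notes name TopHat2 2.1.1, Subread 1.5.2, DESeq2 1.14.1 and GRCm38.p3. Reads were 50 bases long. Library totals and their ranges are given with the results, and counting error bears most on Lyz1, Pla2g2a and Mmp7 in tdTom-, which have the fewest counts.

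Groups came from the labels, and mice were numbered 1 to 8 by the animal number in the titles. Counts were filtered (filterByExpr), scaled by TMM and tested with edgeR 4.0.16 (quasi-likelihood, R 4.3.3), tdTom+ against tdTom- over all 16 libraries without a mouse term, with Benjamini-Hochberg adjustment over all 15841 genes and a threshold of 0.01. CPM used the TMM-scaled totals, and log2 CPM a prior of 2 counts. Standard errors were taken from the fold change and its F value. The fits were tested on simulated counts. Same-numbered libraries come from the same animal, and their deviations correlated at r = 0.22 to 0.41, each highest with its own mouse in 8 of 8. No libraries of a group agreed within sampling noise. Orders were tested by exact sign-flip permutation (scipy 1.17.1) on neighbours, and relations over mice by exact permutation, adjusted within each family of 10 or 45.

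The text names all 10 genes, the genes past the threshold with the 3 largest changes each way in each related list, paralogs with at least 10 counts in a library, and for each of the 10 the most similar gene with a mean CPM of at least 1, which for Itln1 is not reported here. The 10 genes and all lists were chosen with earlier results of these data known. Alternatives were RLE, upper-quartile and no normalization factors, DESeq2 1.42.0, limma-voom (limma 3.58.1), other filters, a threshold of 0.05, a prior of 0.5, a block for the mouse, subsets of mice, and leaving out each mouse. The scaling without factors and the alternatives for relations over mice were chosen after seeing the data.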

Additional observations from a re-analysis of the deposited data

Results flagged for a closer look

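In the 20 groups of 8 libraries (10 genes in each population), 1 library lay far from the others by Dixon's criterion, where chance gives about 1. Lypd8 in the tdTom- library of mouse 4 had a log2 CPM of 12.42, below the 12.89 to 13.29 of the other 7. That library also had the largest total of the 16, and mouse 4 the lowest mitochondrial shares, and the part of either in the Lypd8 value was not tested. The fall of Lypd8 in tdTom+ was seen in mouse 4 as well, where the log2 difference was -2.06, the smallest of the 8 mice.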

How the results depend on the processing

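All 178 fold changes refitted for the 10 genes had the same sign and passed the threshold. The counts were 7 higher and 3 lower in each alternative but the filter of 10 counts in every library, which gave 5 and 3, so leaving out any 1 mouse gave 7 and 3 throughout. Log2 values over these fits ranged from 3.22 to 4.17 for Lyz1, 3.57 to 4.27 for Ang4 and -1.69 to -1.54 for Reg3g. A replicate block for the mouse called 4494 genes higher and 4574 lower, against 4032 and 4042 without it, and changed no call among the 10. The SE of each of the 10 was smaller with the block, as for Ang4 with 0.19 against 0.55. With mice 1 to 3 only, 2546 genes were higher and 2559 lower, with fewer samples in the fit. Leaving out each mouse gave 3670 to 4177 higher and 3700 to 3914 lower. Scaling moved the median of all genes by less than 0.1 on the log2 scale. The relations over mice were less stable than the fold changes: leaving out each mouse gave 5 to 10 of 10 genes followed between populations, 0 to 3 of 45 pairs in tdTom+ and 0 to 6 of 45 in tdTom-. The counts were 0 without mouse 7 in both populations, without mouse 2 in tdTom+ and without mouse 8 in tdTom-, though over the 6 passing pairs the lowest r with any 1 mouse left out was 0.88. Centred within runs of mouse numbers, Mptx1 between populations had r = 0.85 and no longer passed. The filter of 10 counts left Lyz1 and Pla2g2a without a value. Depth limits Lyz1 in tdTom-, at 1 to 35 counts a library, and Pla2g2a, at 8 to 28.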
